A study of Arabidopsis thaliana with 36 samples.

Results

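Transcript levels of 10 Arabidopsis thaliana cell division genes were compared across seedlings grown at 22 or 27 °C. The genes are defined by their locus identifiers, chosen with earlier results of these data known, and are 10 of the 33540 genes in the deposited files. They are 3 B-type cyclins of the CYCB1 family, 3 plant-specific cyclin-dependent kinases of the CDKB family, the 3 D-type cyclins of the CYCD3 family and the syntaxin gene KNOLLE. The B-type cyclins, the kinases and KNOLLE are called the 7 mitotic genes here. Whole seedlings of wild-type Col-0 (WT) were sequenced beside those of the mutants pif4-2 and hda9-1, both on a Col-0 background and each represented by 1 allele. PIF4 is a transcription factor that promotes growth in warmth, and HDA9 is a histone deacetylase. All 3 genotypes grew in short days of 8 h light and 16 h dark at either temperature, and were harvested when the lights came on at an age of 2 or 7 days. The 12 groups of genotype, temperature and age hold 3 libraries each, and each library holds RNA combined from 3 batches of seedlings. Values are normalised read counts, the deposited counts divided by 1 size factor per library. In RNA from whole seedlings, fewer cells of a dividing type and less RNA per cell cannot be told apart.

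A plant cell enters DNA replication when D-type cyclins with an A-type kinase phosphorylate the retinoblastoma protein RBR1 and release E2F transcription factors. It enters mitosis with B-type cyclins and B-type kinases, whose transcripts peak from G2 phase into mitosis, and it divides when KNOLLE fuses vesicles into the cell plate between the daughter nuclei. In a seedling these genes are active mainly in the root and shoot meristems, in young leaves and in the stomatal lineage, and transcripts of the mitotic genes are often read as a sign of dividing cells.

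The genes lie on all 5 chromosomes, with coordinates here from the RefSeq annotation of the assembly TAIR10.1, matched by locus. The B-type cyclins are CYCB1;1 (AT4G37490, chr4:17621886-17624308, minus strand), CYCB1;2 (AT5G06150, chr5:1859279-1861703, minus strand) and CYCB1;4 (AT2G26760, chr2:11401118-11403433, plus strand). The kinases are CDKB1;1 (AT3G54180, chr3:20059671-20061488, plus strand), CDKB2;1 (AT1G76540, chr1:28720328-28722550, minus strand) and CDKB2;2 (AT1G20930, chr1:7292389-7294746, minus strand). KNOLLE (AT1G08560, chr1:2709525-2711000, minus strand) has 2 exons. The D-type cyclins are CYCD3;1 (AT4G34160, chr4:16357421-16359565, plus strand), CYCD3;2 (AT5G67260, chr5:26836139-26839597, plus strand) and CYCD3;3 (AT3G50070, chr3:18565134-18566834, minus strand). All 10 are protein-coding genes.

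Many mitotic genes carry the mitosis-specific activator element, whose core AACGG is bound by MYB3R transcription factors. The 250 bases before each annotated start were searched on both strands for AACGG, for the E2F core (TTCCCGC or TTGGCGC) and for the G-box CACGTG, to which PIF factors can bind. The AACGG core was found 10 times, in 5 of the 10 windows. It was found in 20.6% of the 27438 windows of the same length before protein-coding genes of the 5 chromosomes, called all windows here. The windows of CYCB1;1 and CYCB1;2 held 3 and 4 matches, where 3.62% of all windows held 2 or more. CDKB2;2, KNOLLE and CYCD3;1 held 1 each, and the window of the last overlaps the neighbouring gene AT4G34150. The windows of the mitotic genes CYCB1;4, CDKB1;1 and CDKB2;1 held none, and neither did those of CYCD3;2 and CYCD3;3. Those of CDKB1;1 and CDKB2;1 also overlap neighbouring genes, AT3G54170 and AT1G76550. The 4 mitotic windows with a match that overlap no other gene are shown with the core, or its reverse complement CCGTT, in capitals. One of the windows without a match, that of a D-type cyclin, is shown as well. They read 5′ to 3′ on the strand of the gene and lie at chr4:17624309-17624558 (minus strand), chr5:1861704-1861953 (minus), chr1:7294747-7294996 (minus), chr1:2711001-2711250 (minus) and chr5:26835889-26836138 (plus) of TAIR10.1.
CYCB1;1: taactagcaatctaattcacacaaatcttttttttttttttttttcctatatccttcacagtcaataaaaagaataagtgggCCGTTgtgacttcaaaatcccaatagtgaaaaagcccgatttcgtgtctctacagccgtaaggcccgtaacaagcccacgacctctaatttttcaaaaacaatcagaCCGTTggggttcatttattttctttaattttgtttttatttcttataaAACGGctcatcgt
CYCB1;2: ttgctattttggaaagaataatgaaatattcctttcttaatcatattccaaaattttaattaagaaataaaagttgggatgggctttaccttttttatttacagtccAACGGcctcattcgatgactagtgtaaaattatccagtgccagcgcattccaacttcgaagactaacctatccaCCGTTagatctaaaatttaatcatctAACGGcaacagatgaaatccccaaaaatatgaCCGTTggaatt
CDKB2;2: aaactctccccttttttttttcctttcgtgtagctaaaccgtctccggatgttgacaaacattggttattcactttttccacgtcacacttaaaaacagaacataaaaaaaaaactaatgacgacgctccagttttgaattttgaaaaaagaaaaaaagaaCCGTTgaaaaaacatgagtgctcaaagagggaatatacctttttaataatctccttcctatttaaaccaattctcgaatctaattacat
KNOLLE: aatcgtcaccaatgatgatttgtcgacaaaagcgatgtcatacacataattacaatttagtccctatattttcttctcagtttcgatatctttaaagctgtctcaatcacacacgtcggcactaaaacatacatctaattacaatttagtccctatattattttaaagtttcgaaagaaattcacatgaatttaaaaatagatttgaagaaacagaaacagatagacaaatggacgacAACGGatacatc
CYCD3;2: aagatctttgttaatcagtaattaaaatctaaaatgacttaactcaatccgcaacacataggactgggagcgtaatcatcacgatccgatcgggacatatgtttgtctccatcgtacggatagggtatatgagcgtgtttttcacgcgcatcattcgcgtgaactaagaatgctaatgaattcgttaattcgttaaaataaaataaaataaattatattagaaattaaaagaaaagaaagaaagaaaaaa
In the first window the matches begin 168, 61 and 13 bases before the start, and in the second they begin 143, 69, 43 and 11 bases before it. The KNOLLE match begins 12 bases before the start. The E2F core was found once, as its reverse complement in the window of CYCD3;3, and in 1.92% of all windows. No window held the G-box, which 6.49% of all windows did. These are matches of letters, and no binding was measured.

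The libraries hold 21906850 to 67795235 reads in genes, with a median of 44904956, and each of the 10 genes had a normalised count of at least 59.3 in every library. HDA9 transcripts at 22 °C and 2 days were at 26.7 ± 0.831 in hda9-1 against 549 ± 37.9 (SD, n = 3) in WT. PIF4 was at 470.4 ± 133 in WT and 853 ± 170.3 in the libraries labelled pif4-2 in the same condition, so its count does not check that label. One library stood apart: replicate 3 of pif4-2 at 22 °C and 7 days differed from the other 2 of its group by a chi-square per degree of freedom of 73.1 and 72.5, against 4.54 between those 2 and at most 44.2 elsewhere within a group, and HDA9 was at 829 in it against 547 and 543. Replicate 3 of WT and of pif4-2 at 2 days also differed more from the other 2 (19.9 to 44.2) than those did from each other (3.10 to 11.8). So did replicate 3 of hda9-1 at 27 °C and 2 days (23.17 and 12.15, against 7.349). In hda9-1 at 22 °C and 2 days it was replicate 1 (16.21 and 21.76, against 7.663). The counts of the 10 genes called were also computed without the outlying library and without replicate 3 of every group at 2 days. Markers of shoot and root were both detected, as the label of whole seedling requires, except that the stem cell gene WUS was at 4.22 or less in every library and at 0 in all libraries of WT and pif4-2 at 22 °C and 7 days. Because reads were single and 50 bases long and the strand setting is not stated, overlaps matter for some genes: 33.5% of the KNOLLE exon bases lie within AT1G08550 on the opposite strand and 13.8% of those of CDKB2;2 within AT1G20925. AT1G08550 was higher at 27 °C in WT at 2 days (1219 ± 28.6 at 22 °C and 1703 ± 142 at 27 °C), the direction opposite to KNOLLE. Of CYCB1;2, 11.3% of 50-base exon stretches also occur elsewhere in the genome, so some of its reads may have come from or gone to other loci.

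The 10 genes were expressed over a wide range. Per kb of exon and averaged over all 36 libraries, normalised counts of the 7 mitotic genes ran from 141 for CYCB1;1 to 1167 for KNOLLE. Among the D-type cyclins CYCD3;2 stood highest, at 1576 per kb, and the other 2 were at 591 and 486. Between the groups with the highest and the lowest mean, the 3 B-type cyclins differed 8.29- to 10.5-fold and KNOLLE 8.65-fold, the kinases 3.61- to 7.11-fold and the D-type cyclins 1.67- to 2.64-fold.

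**Figure D1:**
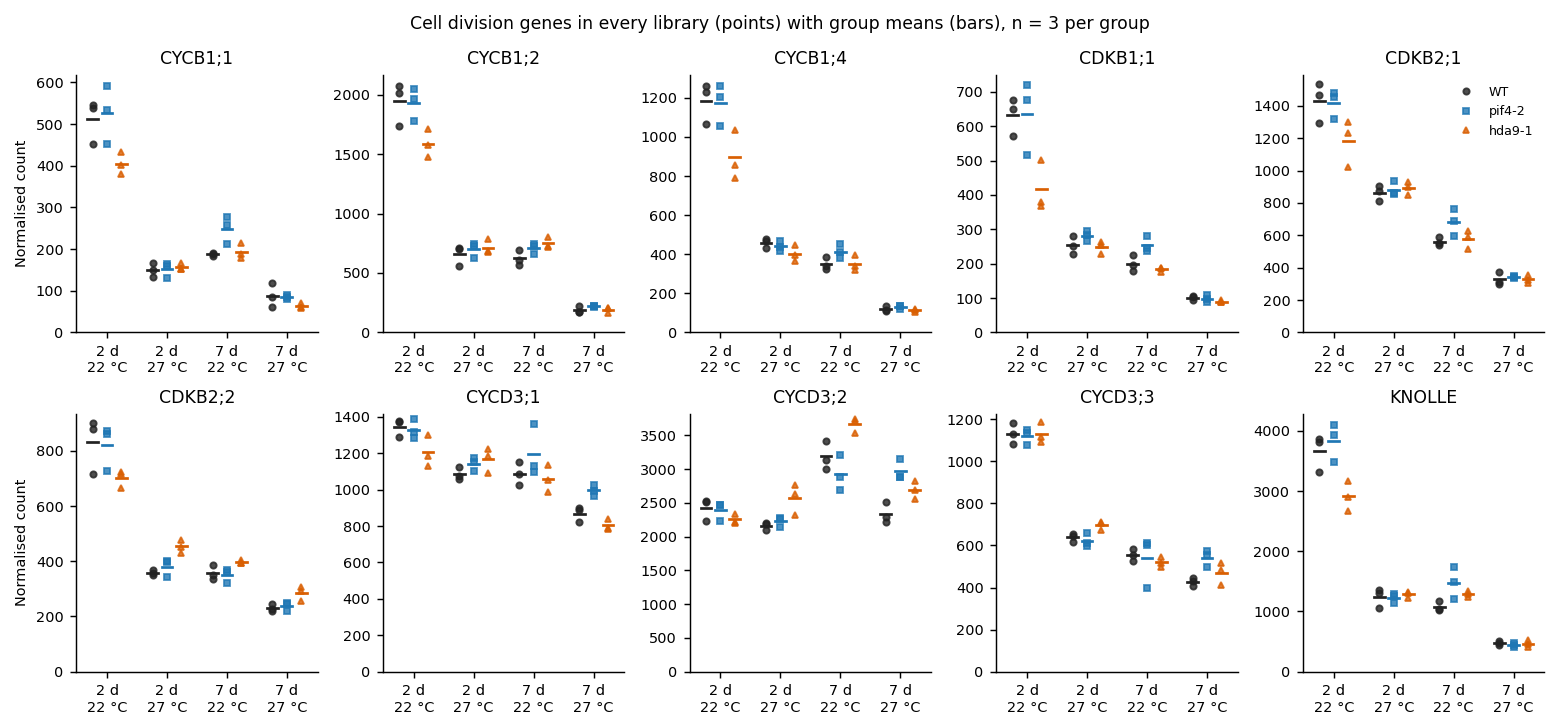
Normalised counts (vertical axes, from 0) of the 10 genes by age and temperature (horizontal axes), with each library as a point, WT as circles, pif4-2 as squares, hda9-1 as triangles and group means (n = 3) as bars. The mitotic genes are highest at 2 days and 22 °C and lowest at 7 days and 27 °C in each genotype. KNOLLE in WT is at 3663 ± 307 in the former and 478 ± 28.6 (SD) in the latter. CYCD3;2 is highest at 7 days and 22 °C in hda9-1, at 3666 ± 109.7.

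Growth at 27 °C was accompanied by lower transcripts of all 10 genes in WT at 2 days. The B-type cyclins fell to between 29.2 and 38.6% of their level at 22 °C, and KNOLLE to 33.9%. CYCB1;1 was at 546, 539.6 and 451 in the 3 libraries at 22 °C and at 167, 149.8 and 132 at 27 °C. The groups did not overlap, and the transcript fell by 1.77 ± 0.12 on the log2 scale (limma, SE, adjusted p = 6.15e-09), the largest fall of the 10. CYCB1;2 was at 2019, 2075 and 1741 at 22 °C and at 704, 714 and 562 at 27 °C. Its lowest library at 22 °C was far above its highest at 27 °C, and its difference was -1.56 ± 0.10 (limma, adjusted p = 4.75e-09). CYCB1;4 was at 1186 ± 103 (SD, n = 3) at 22 °C and 458 ± 23.0 at 27 °C, a log2 difference of -1.37 ± 0.10. All 3 cyclins activate kinases at the entry into mitosis, and the first is the one commonly used to mark cells in G2 phase and mitosis.

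All 3 kinases were lower in the warm seedlings as well. CDKB1;1, a kinase active from S phase on and in the divisions of the stomatal lineage, was at 676, 649 and 572 at 22 °C and 281, 227 and 250.3 at 27 °C. That is a log2 difference of -1.32 ± 0.13 with no overlap (limma, adjusted p = 2.31e-07). CDKB2;2, a kinase of G2 phase and mitosis, was at 880.2, 900.3 and 715 at 22 °C and 359, 367 and 349.8 at 27 °C. It differed by -1.20 ± 0.09 on the log2 scale (limma, adjusted p = 1.76e-08), and the 3 warm libraries lay close together. Its nearest relative CDKB2;1 was at 1432 ± 125 (SD, n = 3) and 864 ± 46.1, and kept 60.3% of its level. KNOLLE, the syntaxin of the cell plate, was at 3867, 3813 and 3310 at 22 °C and 1351, 1309 and 1064 at 27 °C. It fell by 1.57 ± 0.09 on the log2 scale (limma, adjusted p = 2.43e-09), and the groups did not overlap.

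The D-type cyclins, which act at the entry into the cycle, differed among themselves. CYCD3;3 was at 1129.9, 1183 and 1081 at 22 °C and 647, 653 and 614 at 27 °C. It fell by 0.82 ± 0.06 (limma, adjusted p = 6.15e-09), to 56.4% of its level. CYCD3;1 was at 1378, 1370.5 and 1289 and 1059, 1074 and 1123, a smaller log2 difference of -0.31 ± 0.06 (limma, adjusted p = 0.0002). CYCD3;2 was the most abundant of the 10 per kb when averaged over all libraries, though not in this condition. It was at 2518, 2521 and 2231 at 22 °C and 2103, 2201 and 2184 at 27 °C. Its difference of -0.16 ± 0.07 passed the threshold (limma, adjusted p = 0.04), although its lowest library at 22 °C was only just above its highest at 27 °C. That call was lost without replicate 1 or 2 at 22 °C or any 1 replicate at 27 °C (limma, adjusted p 0.0543 to 0.135, within a range of 0.00754 to 0.135 over all its alternatives). Over all 21164 genes tested, 72.0% were called in this comparison and 35.5% were called lower, against 10 of these 10. Their median log2 difference was -1.26, and that of all genes was 0.01. Without replicate 3 of every group at 2 days all 10 were still called.

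**Figure D2:**
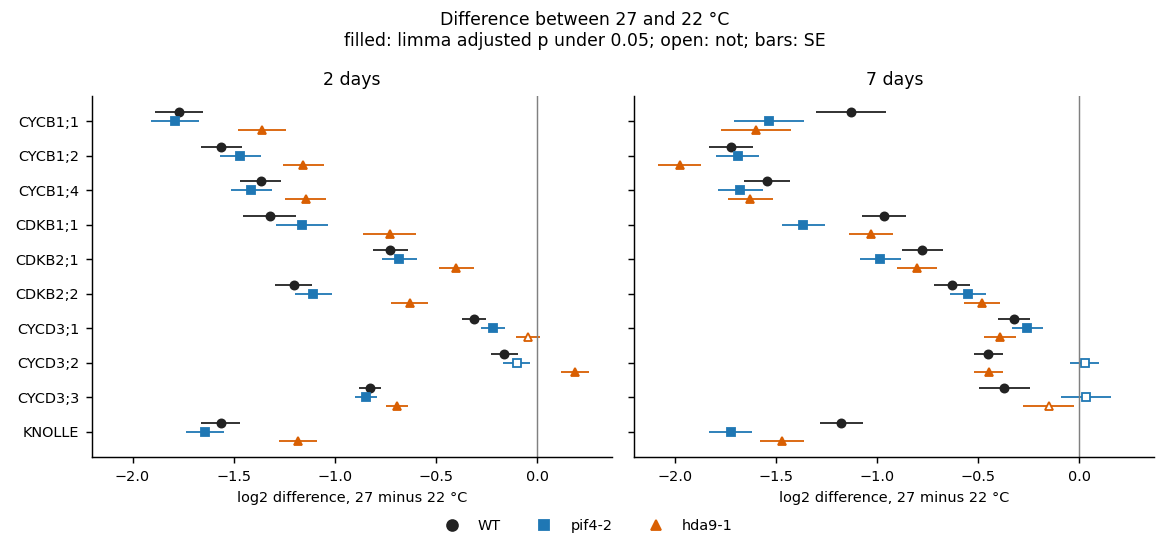
Log2 difference between 27 and 22 °C (horizontal axes) of each gene in WT (circles), pif4-2 (squares) and hda9-1 (triangles) at 2 days (left) and 7 days (right), with SE as bars and filled symbols where the limma adjusted p was under 0.05. The B-type cyclins and KNOLLE lie between -1.98 and -1.13, while CYCD3;1 and CYCD3;2 lie from -0.45 to 0.19.

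At 7 days all 10 genes were again lower at 27 °C in WT. CYCB1;2 was at 697, 570.3 and 611 at 22 °C and 222, 172 and 174 at 27 °C. It fell by 1.72 ± 0.11 (limma, adjusted p = 4.61e-10), to 30.3% of its level. CYCB1;4 kept 34.2% (log2 difference -1.54 ± 0.11) and CYCB1;1 kept 47.1% (-1.13 ± 0.17). The warm libraries of the last were spread widely, at 119, 86.0 and 60.7. KNOLLE was at 1179, 1019.7 and 1047 at 22 °C and 505, 448 and 481 at 27 °C. Its log2 difference was -1.18 ± 0.11 (limma, adjusted p = 4.88e-08), without overlap. The kinases differed by -0.97 to -0.63 on the log2 scale, and the groups did not overlap for any of them.

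CYCD3;2 had a clearer difference at this age. It was at 3139, 3422 and 3008 at 22 °C and 2511, 2285 and 2210.2 at 27 °C, a log2 difference of -0.45 ± 0.07 (limma, adjusted p = 3.4e-05). CYCD3;1 differed by -0.32 ± 0.08 and CYCD3;3 by -0.37 ± 0.13, the latter lying at 527 to 582 at 22 °C and 409 to 446 at 27 °C. The latter call was lost without replicate 3 at 22 °C (limma, adjusted p = 0.0609) or replicate 2 at 27 °C (0.0587), the highest of its alternatives being 0.0609. Of all 21320 genes tested at 7 days, 57.4% were called and 31.1% were called lower. The median log2 difference of the 10 genes was -0.87, against -0.03 over all genes.

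Whether the response to warmth itself differed between the ages in WT was tested as the difference between both log2 differences, in which a positive value means a smaller fall at 7 days. CDKB2;2 fell less at 7 days, by 0.58 ± 0.13 (limma, adjusted p = 0.000454), and so did CYCB1;1 (0.64 ± 0.22, adjusted p = 0.0155), CYCD3;3 (0.45 ± 0.14, adjusted p = 0.0095) and KNOLLE (0.39 ± 0.15, adjusted p = 0.0306). CYCD3;2 fell more at 7 days, with a value of -0.29 ± 0.10 (limma, adjusted p = 0.0181). These 5 calls compare with 47.4% of the 21879 genes tested, 20.8% higher and 26.7% lower. The other 5 genes did not pass, with differences of -0.18 to 0.35. CDKB2;2 and CYCD3;3 kept their calls under every alternative tried (highest adjusted p 0.00374 and 0.0319). CYCB1;1 lost it without replicate 1 of WT at 27 °C and 7 days (limma, adjusted p = 0.0871, range 0.000413 to 0.0871), CYCD3;2 without WT replicate 3 at 22 °C and 2 days, replicate 2 at 22 °C and 7 days or replicate 3 at 27 °C and 7 days (0.0542 to 0.065, range 0.00825 to 0.0887), and KNOLLE without any of 7 of the 12 libraries (0.0502 to 0.124, range 0.0145 to 0.124). Those 7 were WT replicates 1 and 2 at 22 °C and 2 days, replicate 3 at 27 °C and 2 days, replicates 2 and 3 at 22 °C and 7 days, and replicates 1 and 3 at 27 °C and 7 days. Without replicate 3 of every group at 2 days 3 genes were called, and 3 also without WT replicate 2 at 22 °C or replicate 1 or 3 at 27 °C at 7 days.

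Levels were also lower at 7 than at 2 days for every mitotic gene at either temperature. At 22 °C in WT, KNOLLE went from the 2-day values above to 1179, 1019.7 and 1047, which is 29.5% of its 2-day mean (log2 difference -1.76 ± 0.10, limma adjusted p = 2.49e-15). The B-type cyclins kept 29.5 to 36.6% and the kinases 31.5 to 42.9%, and these 6 genes differed by -1.76 to -1.21 on the log2 scale. CYCD3;3 fell by 1.03 ± 0.10, whereas CYCD3;1 fell by 0.31 ± 0.07. CYCD3;2 went the other way: it was at 2518, 2521 and 2231 at 2 days and 3139, 3422 and 3008 at 7 days, and rose by 0.40 ± 0.07 (limma, adjusted p = 8.85e-06). All 10 genes were called, 9 lower and 1 higher, where 76.4% of all 21879 genes were called, 38.3% lower and 38.1% higher. At 27 °C in WT the 9 were again lower, of 70.8% of genes called and 35.4% called lower, and the exception did not pass (0.11 ± 0.07, limma adjusted p = 0.167). Without replicate 3 of every group at 2 days, 10 genes were called at 22 °C and 9 at 27 °C. Markers of several tissues also differed between the ages in WT at 22 °C. Their summed level at 2 and at 7 days was 2232 to 3086 and 260 to 309.7 for root hairs, 1600 to 1663 and 854.8 to 997 for the shoot meristem, 3652 to 3853 and 2688 to 2824 for the root meristem, 7277 to 8111 and 5218 to 5614 for the leaf primordium and 2427 to 2567 and 1536 to 1633 for the stomatal lineage. Those of green tissue went the other way, from 454800 to 537000 at 2 days to 1164000 to 1198000 at 7 days. Of these markers 2 of 2, 2 of 3 tested, 4 of 5, 1 of 5 and 4 of 5 were called lower, in that order, 1 each of both meristems and the stomatal lineage and 2 of the leaf primordium were called higher, and so were 3 of 3 of green tissue. Their part in the levels of the cell division genes was not tested.

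The mutants showed the same order of ages. In hda9-1 at 22 °C, 9 genes were lower at 7 days and CYCD3;2 was higher, by 0.70 ± 0.07 (73.0% of genes called, 36.7% lower and 36.2% higher), and at 27 °C 9 were lower (69.9%, 33.8% lower). In pif4-2 at 22 °C, 9 were lower and the same cyclin was higher, by 0.29 ± 0.07 (74.9%, 38.4% lower and 36.5% higher), and at 27 °C 8 were lower and it was higher, by 0.42 ± 0.07 (71.1%, 35.5% lower and 35.7% higher). The smallest of these falls was that of CYCD3;1 in pif4-2 at 22 °C (-0.16 ± 0.07, limma adjusted p = 0.041), whose call was lost without replicate 1 or 2 at either age (0.0672 to 0.234, the highest of its alternatives). The same gene in hda9-1 at 22 °C (-0.19 ± 0.07, limma adjusted p = 0.0163) lost its call without replicate 2 at 2 days (0.119) or replicate 3 at 7 days (0.105). Without the outlying replicate 3 of pif4-2 all 10 genes were still called at 22 °C. The comparisons of ages and of temperatures share libraries at each condition, so their values are given side by side and not as independent results. In WT the libraries of warm 2-day seedlings and of cool 7-day seedlings overlapped for KNOLLE, at 1064 to 1351 and 1019.7 to 1179. They also overlapped for CYCB1;2 and CDKB2;2, but not for the other mitotic genes. CYCB1;1 was lower in the warm 2-day seedlings, at 132 to 167 against 184 to 191. CYCB1;4, CDKB1;1 and CDKB2;1 were higher in them, the last at 813 to 904 against 540 to 592.

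**Figure D3:**
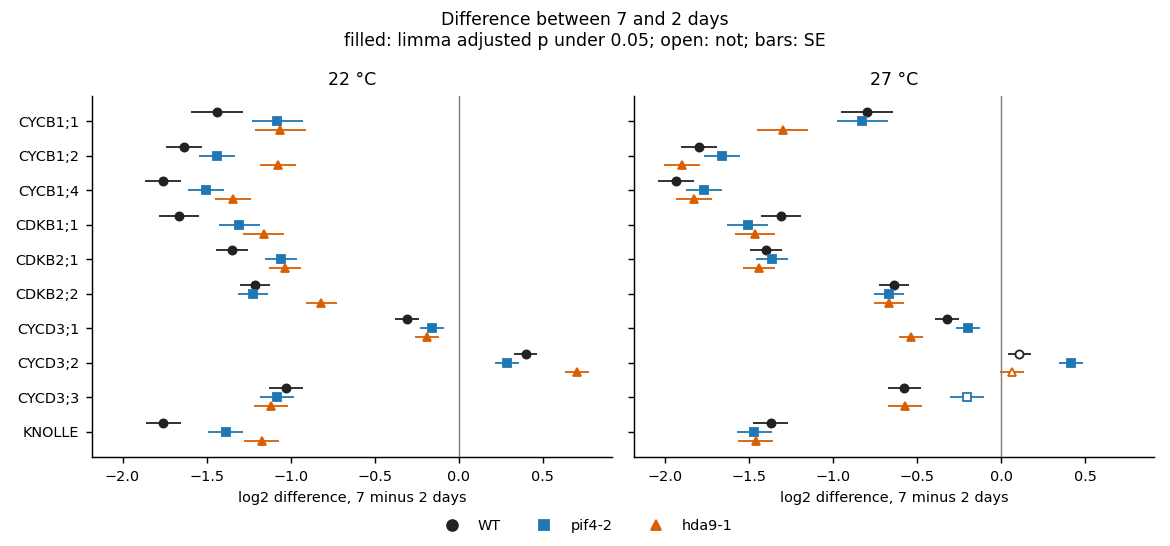
Log2 difference between 7 and 2 days (horizontal axes) of each gene in WT (circles), pif4-2 (squares) and hda9-1 (triangles) at 22 °C (left) and 27 °C (right), with SE as bars and filled symbols where the limma adjusted p was under 0.05. CYCD3;2 lies above 0 in every genotype at 22 °C, at 0.40 in WT and 0.70 in hda9-1, and the mitotic genes lie below it, KNOLLE at -1.76 in WT.

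The 7 mitotic genes moved together across the 12 groups. Between group means of log2(normalised count + 1), Pearson's r among their 21 pairs was 0.894 to 0.993, and after removing the group means it was 0.17 to 0.803 over the 36 libraries with a median of 0.407. Libraries share their depth and size factor across genes, so these are descriptions with no test. Among the 3 pairs of CYCD3 genes r between group means was -0.443 to 0.813, and between CYCD3 genes and the mitotic genes it was -0.431 to 0.95. Summed over the 7 mitotic genes, normalised counts in WT were 10200 ± 912 (SD, n = 3) at 22 °C and 2 days, 3984 ± 292 at 27 °C and 2 days, 3363 ± 201 at 22 °C and 7 days and 1535 ± 108 at 27 °C and 7 days. The sum of the 3 CYCD3 genes was 4901 ± 261, 3886 ± 66.4, 4831 ± 209.5 and 3632 ± 192 in the same groups. In pif4-2 the mitotic sum was 10340 ± 907.1, 4062 ± 232, 4141 ± 435 and 1557 ± 52.8, and in hda9-1 it was 8104 ± 722, 4152 ± 187, 3744 ± 184 and 1539 ± 117, in the same order of conditions. The CYCD3 sum was 4842 ± 220.4, 3993 ± 78.5, 4657 ± 252 and 4512 ± 181 in pif4-2 and 4591 ± 129, 4440 ± 302, 5243 ± 151 and 3963 ± 191 in hda9-1. The 3 genotypes thus lay closest together for the mitotic sum at 27 °C and 7 days. In WT the sum of the mitotic genes was 2.08 times that of the CYCD3 genes in the first group and 0.423 times in the last.

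In the order of the 12 group means, most neighbours overlapped. For KNOLLE, 3 of 11 steps separated neighbours without overlap: hda9-1 at 22 °C and 2 days lay below WT and pif4-2 in the same condition, 6 groups from 1481 in pif4-2 at 22 °C and 7 days down to 1082 in WT at 22 °C and 7 days came next, and the 3 groups at 27 °C and 7 days were lowest, at 444 to 478. The other mitotic genes had 3 to 5 such steps and the D-type cyclins 1 to 3. The groups were ordered by these same means and such steps were not counted for other genes, so the counts only describe the order. CYCD3;2 had 1, which separated hda9-1 at 22 °C and 7 days, the highest group, from WT in the same condition. The genes whose group means were most like those of KNOLLE among 18295 genes with a mean of at least 50 were MKK6 (AT5G56580, r = 0.9985), a mitogen-activated protein kinase kinase of cytokinesis, and AT1G10780, EHD2, AT3G20150 and AT3G51230 (0.9967 to 0.9968). Those most like CDKB1;1 were AUR1, a mitotic Aurora kinase (0.9968), the spindle checkpoint gene MAD2 (0.9943), CYCB2;4 (0.9942), NAKR2 (0.994) and the replication clamp gene PCNA1 (0.9935). Those most like CYCD3;1 were GLIP5 (0.9867), TCL2 (0.9771), AT4G31805 (0.9748), AT1G09470 (0.9724) and ROPGEF5 (0.9721).

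The other genes of the cycle were read from lists by role, each with its count over genes called in WT. Of 14 DNA replication genes, 14 were lower at 27 °C at 2 days and 14 at 7 days, with median log2 differences of -0.94 and -0.93. Among them the helicase subunit MCM3 differed by -1.20 ± 0.10 at 2 days and MCM7 by -1.10 ± 0.08 at 7 days, and the licensing factor CDT1A by -1.36 ± 0.13 and -1.54 ± 0.15. Of 14 A-type and further B-type cyclins and CDKB1;2, 12 were lower at 2 days and 14 at 7 days, with CYCA1;1 at -1.70 ± 0.11 and -1.65 ± 0.11. Of 18 genes of mitosis and cytokinesis, 15 were lower and 2 higher at 2 days, and 14 lower and 1 higher at 7 days. The Aurora kinase gene AUR2 differed by -2.01 ± 0.12 at 2 days and the phragmoplast kinesin gene HINKEL by -1.92 ± 0.14 at 7 days, while SNAP33, a partner of KNOLLE that is also used in other secretion, rose by 0.77 ± 0.06 at 7 days. These counts stand beside 35.5% of all genes lower at 2 days and 31.1% at 7 days.

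Regulators had calls in both directions. Of 14 genes of G1 and S phase control, 9 were lower and 2 higher at 2 days, and 8 lower and 1 higher of the 13 tested at 7 days. E2FA, an activator of replication genes, fell by 1.29 ± 0.12 at 2 days, and CDKA;1, the kinase partner of D-type cyclins, rose by 0.30 ± 0.04. Of the 4 MYB3R factors, the activator gene MYB3R4 fell by 1.84 ± 0.14 at 2 days and 1.54 ± 0.10 at 7 days, while MYB3R3 and MYB3R5, which act as repressors, rose by 0.39 ± 0.08 and 0.47 ± 0.10 at 2 days and by 0.55 ± 0.08 and 0.49 ± 0.10 at 7 days (limma, adjusted p at most 0.000493). Of 14 inhibitors of cyclin-dependent kinases and WEE1, 3 were higher and 6 lower at 2 days, and 3 higher and 5 lower at 7 days, beside shares of all genes of 36.5% higher and 35.5% lower at the first age and 26.3% and 31.1% at the second. The share of these inhibitors called lower is thus near that of all genes. At 2 days KRP4 rose by 0.82 ± 0.11 and SIM by 0.49 ± 0.06, while KRP7 fell by 1.52 ± 0.17. Of 4 genes tied to endoreduplication, the replication of DNA without division, 3 were lower at 2 days and 4 at 7 days, led by CCS52B at 2 days (-1.22 ± 0.08) and DEL1 at 7 days (-1.18 ± 0.17). This list was not sorted by whether a gene promotes or restrains that process. Ploidy was not measured, so these falls do not tell whether there was more or less of it.

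**Figure D4:**
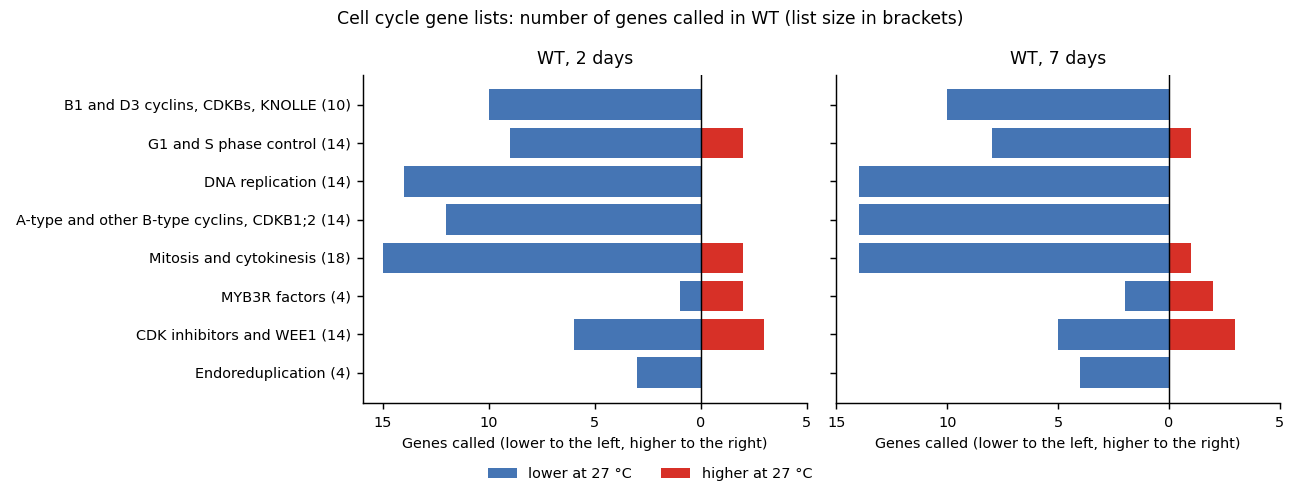
Number of genes called lower (left of 0) or higher (right of 0) at 27 than at 22 °C in WT at 2 days (left) and 7 days (right) in the 10 genes described here and in 7 lists of cell cycle genes, with list sizes in brackets. All 14 DNA replication genes were lower at both ages, while the MYB3R factors and the inhibitors of cyclin-dependent kinases had calls in both directions.

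Markers of tissues moved unequally with warmth in WT, where 35.5% of all genes were called lower and 36.5% higher at 2 days and 31.1% and 26.3% at 7 days. All 5 stomatal lineage markers were lower at 27 °C at 2 days and 4 of 5 at 7 days, and their summed level was 2427 to 2567 at 22 °C and 1674 to 1868 at 27 °C at 2 days, and 1536 to 1633 and 1030 to 1102 at 7 days. Of 5 root meristem markers, 2 were lower and 1 higher at 2 days and 3 were lower at 7 days, with sums of 3652 to 3853 and 3196 to 3354 at 2 days and 2688 to 2824 and 2189 to 2328 at 7 days. Of 4 shoot meristem markers, 3 could be tested at 2 days, of which 1 was higher, and 2 at 7 days, both higher. Their sums overlapped at 2 days (1600 to 1663 and 1443 to 1740) and were 854.8 to 997 and 1148 to 1300 at 7 days. Of 5 leaf primordium markers, 3 were lower at 2 days and 2 at 7 days, with sums of 7277 to 8111 and 7187 to 7679 at 2 days and 5218 to 5614 and 4313 to 4662 at 7 days. Both root hair markers, which mark cells that no longer divide, were lower, with sums of 2232 to 3086 and 196 to 554 at 2 days and 260 to 309.7 and 50.5 to 66.2 at 7 days. Of the 3 markers of green tissue, 1 was lower at 2 days and all 3 at 7 days, with sums of 454800 to 537000 and 384500 to 503800 at 2 days and 1164000 to 1198000 and 480800 to 628700 at 7 days. Without replicate 3 of every group at 2 days no shoot meristem marker was called at 2 days. The part of these tissues in the levels of the cell division genes was not tested.

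In seedlings labelled pif4-2, 9 genes were also lower at 27 °C at 2 days (70.2% of genes called, 34.4% lower), with log2 differences of -1.64 ± 0.09 for KNOLLE and -1.79 to -1.41 for the B-type cyclins. CYCD3;2 did not pass (-0.10 ± 0.07, limma adjusted p = 0.188), but did without replicate 3 of every group at 2 days (-0.17, 0.0373). Compared directly with WT at 2 days, no gene was called at either temperature by limma, edgeR or DESeq2, nor by limma without replicate 3 of every group at 2 days, and none had an unadjusted p under 0.05, where 0.184% of all genes were called at each temperature. At 22 °C, KNOLLE was at 3937, 4098 and 3478 in pif4-2, which overlaps the WT values of 3867, 3813 and 3310, and the difference was 0.07 ± 0.09. The largest difference between the genotypes at 2 days was that of CDKB1;1 at 27 °C (0.16 ± 0.13). The responses of pif4-2 and WT at 2 days differed by -0.08 to 0.16 with SE of 0.08 to 0.18, and 0% of all genes were called by limma in that test.

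At 7 days and 22 °C the mitotic genes had 2 calls in pif4-2, both higher than WT. KNOLLE was at 1215, 1491 and 1737 in pif4-2 and 1179, 1019.7 and 1047 in WT. All 3 pif4-2 libraries lay above the WT libraries, and the difference was 0.44 ± 0.11 (limma, adjusted p = 0.00879). CDKB1;1 was at 281, 238 and 246 and 224, 196 and 178, and was higher by 0.36 ± 0.11 (limma, adjusted p = 0.0297). Without the outlying replicate 3 of pif4-2 both calls were kept, at 0.32 for KNOLLE (limma, adjusted p = 0.0306, range over its alternatives 0.00086 to 0.0993) and 0.38 for CDKB1;1 (0.034, range 0.0169 to 0.152). The kinase lost its call without WT replicate 2 (0.0829) or 3 (0.133) or pif4-2 replicate 1 (0.101), and without 1 of these WT replicates 1 gene was called. Of all genes 17.7% were called, 7.95% higher. CYCB1;1 was above WT in all 3 libraries but did not pass (0.39 ± 0.17, limma adjusted p = 0.125), nor did CDKB2;1 (0.28 ± 0.10, 0.0643), which passed without pif4-2 replicate 1 (0.37, 0.0201) and with DESeq2 (0.29, 0.0496), within a range of 0.0201 to 0.202. With only both groups in the fit, no gene was called. Of the 14 DNA replication genes 8 were higher in pif4-2 and none lower, with MCM6 at 0.65 ± 0.10 and MCM5 at 0.63 ± 0.10, and without the outlying replicate 3 of pif4-2 10 were higher. Of the 18 genes of mitosis and cytokinesis 7 were higher and none lower, but without that library 2 were higher and 2 lower. Of the 5 stomatal lineage markers 2 were higher in pif4-2, and 3 without that library, with a summed level of 1794 to 1946 against 1536 to 1633 in WT, and 1 of 2 shoot meristem markers tested was lower, and 2 without it. The part of these tissues in the result was not tested.

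At 7 days and 27 °C no mitotic gene of pif4-2 was called against WT, and CYCD3;2 was higher. It was at 2889, 2878 and 3155 in pif4-2 and 2511, 2285 and 2210.2 in WT, with no overlap and a difference of 0.35 ± 0.07 (limma, adjusted p = 0.00136), the only call of the 10 where 24.8% of all genes were called and 13.1% higher. CYCD3;3, at 556, 499 and 573 and 446, 409 and 429.9, did not overlap either but did not pass (0.34 ± 0.13, limma adjusted p = 0.0574), though it did with edgeR (0.0323) and DESeq2 (0.0244) and with TMM scaling (0.0451), within a range of 0.00873 to 0.162. Without WT replicate 1, CYCB1;2 passed as well (0.34, limma adjusted p = 0.0294, range 0.0294 to 0.406). Of the 14 DNA replication genes 7 were higher in pif4-2 and none lower, and of the 18 genes of mitosis and cytokinesis 2 were higher and 4 lower, where 11.7% of all genes were called lower. All 3 green tissue markers were higher, with sums of 869400 to 888700 in pif4-2 and 480800 to 628700 in WT, and so were 3 of the 5 stomatal lineage markers (1263 to 1298 and 1030 to 1102). Of the root meristem and leaf primordium markers 1 of 5 each was higher, and the part of these tissues in the result was not tested. The response of pif4-2 to warmth at 7 days comprised 8 lower genes (60.1% of genes called, 31.6% lower), KNOLLE with a log2 difference of -1.72 ± 0.11, while CYCD3;2 (0.03 ± 0.07) and CYCD3;3 (0.03 ± 0.13) did not pass. Without the outlying replicate 3 at 22 °C 8 genes were also called. The response of the former differed from that of WT by 0.48 ± 0.10 (limma, adjusted p = 0.0188), where 1.63% of all genes were called in that direction. Without the outlying pif4-2 replicate 3 it was 0.42 (limma, adjusted p = 0.0171), and it lost its call without WT replicate 2 at 22 °C, WT replicate 2 or 3 at 27 °C or pif4-2 replicate 3 at 27 °C (0.0509 to 0.065, range 0.000698 to 0.0721). KNOLLE differed by -0.55 ± 0.15 and did not pass (limma, adjusted p = 0.0693), except without pif4-2 replicate 1 at 22 °C (-0.68, 0.0113) and with DESeq2 (-0.55, 0.0238), within a range of 0.0113 to 0.172.

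In hda9-1 at 22 °C and 2 days the mitotic genes were lower than in WT. CDKB1;1 was at 500.1, 367 and 381 in hda9-1 and 676, 649 and 572 in WT. The groups did not overlap, and the difference was -0.61 ± 0.13 (limma, adjusted p = 0.00162), the largest of the 10. CYCB1;4 was at 1038, 858 and 789.8 and 1229, 1261 and 1068, a log2 difference of -0.41 ± 0.10 (limma, adjusted p = 0.00409). KNOLLE was at 3168, 2668 and 2902 and 3867, 3813 and 3310, a log2 difference of -0.33 ± 0.09 (limma, adjusted p = 0.0097). The other 2 B-type cyclins (-0.34 and -0.29), the other 2 kinases (-0.28 and -0.24) and CYCD3;1 (-0.16) were also called lower. That gives 8 of 10, where 45.7% of all genes were called and 20.9% lower. The groups overlapped for CDKB2;1, CDKB2;2 and CYCD3;1 (limma, adjusted p = 0.0154, 0.0432 and 0.0364). The other 2 D-type cyclins did not pass, at -0.10 ± 0.07 and 0.00 ± 0.06. Only the first 2 genes above kept their calls under every alternative, with a highest adjusted p of 0.0115 for the kinase and 0.0282 for the cyclin. KNOLLE lost its call without hda9-1 replicate 2 (limma, adjusted p = 0.0536, range 0.00024 to 0.0536), and the count was 3 without that library or without WT replicate 1 or 2, 4 without hda9-1 replicate 3, 7 without replicate 3 of every group and 5 with only both groups in the fit. The median difference of the 10 was -0.28 and that of all genes 0.01. Of the 14 further A- and B-type cyclins and CDKB1;2, 7 were lower, the last at -0.60 ± 0.10. Of the 18 mitosis and cytokinesis genes 8 were lower and 2 higher, with HINKEL at -0.74 ± 0.14 and KEULE at 0.43 ± 0.07. Among tissue markers, 3 of 5 of the leaf primordium were lower and 1 higher (summed level 6861 to 7620 in hda9-1 and 7277 to 8111 in WT, median log2 difference -0.19). Of the 5 stomatal lineage markers 2 were lower, with sums of 2313 to 2542 against 2427 to 2567. Of the 3 green tissue markers 1 was higher, with sums of 578300 to 712800 against 454800 to 537000. Root and shoot meristem markers had 1 higher each and 1 root marker was lower. The part of these tissues in the result was not tested.

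At 27 °C and 2 days none of the 10 genes was called lower in hda9-1 than in WT, and 2 were called higher. CDKB2;2 was at 430.2, 479 and 452 in hda9-1 and 359, 367 and 349.8 in WT, higher by 0.34 ± 0.09 (limma, adjusted p = 0.0119). CYCD3;2 was at 2314, 2639 and 2770 and 2103, 2201 and 2184, higher by 0.25 ± 0.07 (limma, adjusted p = 0.0123). The groups overlapped for neither gene, and 29.4% of all genes were called in this comparison, 14.4% higher. CYCD3;2 lost its call without hda9-1 replicate 3 (0.19, limma adjusted p = 0.0729, range 0.00247 to 0.0729), which leaves 1 gene. In this comparison libraries with the same replicate number varied together, and blocking on that number called CYCD3;3 as well (0.13, limma adjusted p = 0.0499 in the fit with the block, against 0.0867 without the block). The other mitotic genes differed by -0.19 to 0.12, KNOLLE by 0.05 ± 0.09, and none of these passed. Of the 3 green tissue markers 2 were higher in hda9-1, with a median log2 difference of 1.42 and sums of 590000 to 676600 against 384500 to 503800 in WT. Of the other markers, 1 each of shoot meristem, leaf primordium and stomatal lineage was higher and 1 of the leaf primordium lower, and the part of these tissues in the result was not tested.

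The fall with warmth in hda9-1 at 2 days started from these lower levels. Within hda9-1, 8 genes were lower at 27 °C and CYCD3;2 was higher, where 66.8% of genes were called, 35.0% lower and 31.8% higher. KNOLLE fell by 1.18 ± 0.09 and CDKB1;1 by 0.73 ± 0.13, while CYCD3;1 did not pass (-0.05 ± 0.06, limma adjusted p = 0.511). CYCD3;2 was at 2341, 2218 and 2207 at 22 °C and 2314, 2639 and 2770 at 27 °C, and its rise of 0.19 ± 0.07 (limma, adjusted p = 0.0217) was lost without hda9-1 replicate 2 or 3 at either temperature (0.0602 to 0.119) or without replicate 3 of every group at 2 days (0.135, the highest of its alternatives). Tested directly, the response of hda9-1 was smaller than that of WT for CDKB2;2, by 0.58 ± 0.13 (limma, adjusted p = 0.0337). That was 1 gene of 10, where 0.567% of all genes were called in that direction and 2.71% in either. Of all called genes 20.9% were higher, and 34.0% with TMM scaling. For 8 of the 10 genes the unadjusted p was under 0.05, as it was for 20.4% of all genes. The 10 differences ran from 0.13 to 0.59. They come from the same libraries and are not separate results, and the share of positive differences over all genes was not computed. The count ranged from 0 to 5 when single libraries were left out: the kinase lost its call without WT replicate 1 or 2 at either temperature or hda9-1 replicate 2 or 3 at either temperature (0.0532 to 0.11, range 0.00356 to 0.11), while 5 genes were called without WT replicate 3 at 22 °C, 3 without hda9-1 replicate 1 at 22 °C and 2 without hda9-1 replicate 1 at 27 °C. Without replicate 3 of every group at 2 days 4 genes were called.

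At 7 days few of these genes were called between hda9-1 and WT. At 22 °C none of the 10 was called by limma, where 20.0% of all genes were, although 3 had an unadjusted p under 0.05 (32.6% of all genes), edgeR called 1 and DESeq2 called 2. CYCD3;2 was at 3738, 3539.5 and 3720.1 in hda9-1 and 3139, 3422 and 3008 in WT, a difference of 0.20 ± 0.07 just beyond the threshold (limma, adjusted p = 0.0537), which passed with edgeR (0.0455), DESeq2 (0.028), TMM scaling (0.0424) and without WT replicate 2 (0.0352), within a range of 0.0102 to 0.193. KNOLLE was at 1343, 1283 and 1244 in hda9-1, above all WT libraries, and differed by 0.26 ± 0.11 without passing (limma, adjusted p = 0.104). At 27 °C, CDKB2;2 was at 257, 292 and 308 in hda9-1 and 218, 226 and 246 in WT. It was higher by 0.31 ± 0.09 (limma, adjusted p = 0.0115), and CYCD3;2 by 0.20 ± 0.07 (limma, adjusted p = 0.0336), with no overlap for either, where 34.3% of all genes were called and 18.4% higher. CDKB2;2 lost its call without WT replicate 1 (0.0504) or hda9-1 replicate 3 (0.0655, the highest of its alternatives), and CYCD3;2 without WT replicate 2 or 3 or hda9-1 replicate 1 or 3 (0.0774 to 0.134, range 0.0156 to 0.134). Without hda9-1 replicate 3 neither gene was called, and without WT replicate 3 CYCB1;1 was called lower (-0.67, limma adjusted p = 0.00265, range 0.00265 to 0.385). Within hda9-1 at 7 days 9 genes were lower at 27 °C (57.9% of genes called, 30.4% lower), KNOLLE with a log2 difference of -1.47 ± 0.11, and CYCD3;3 did not pass (-0.15 ± 0.13). No response differed from that of WT at 7 days by limma, edgeR or DESeq2, none had an unadjusted p under 0.05, and 3.53% of all genes were called. The tests of pif4-2 and of hda9-1 share the WT libraries.

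**Figure D5:**
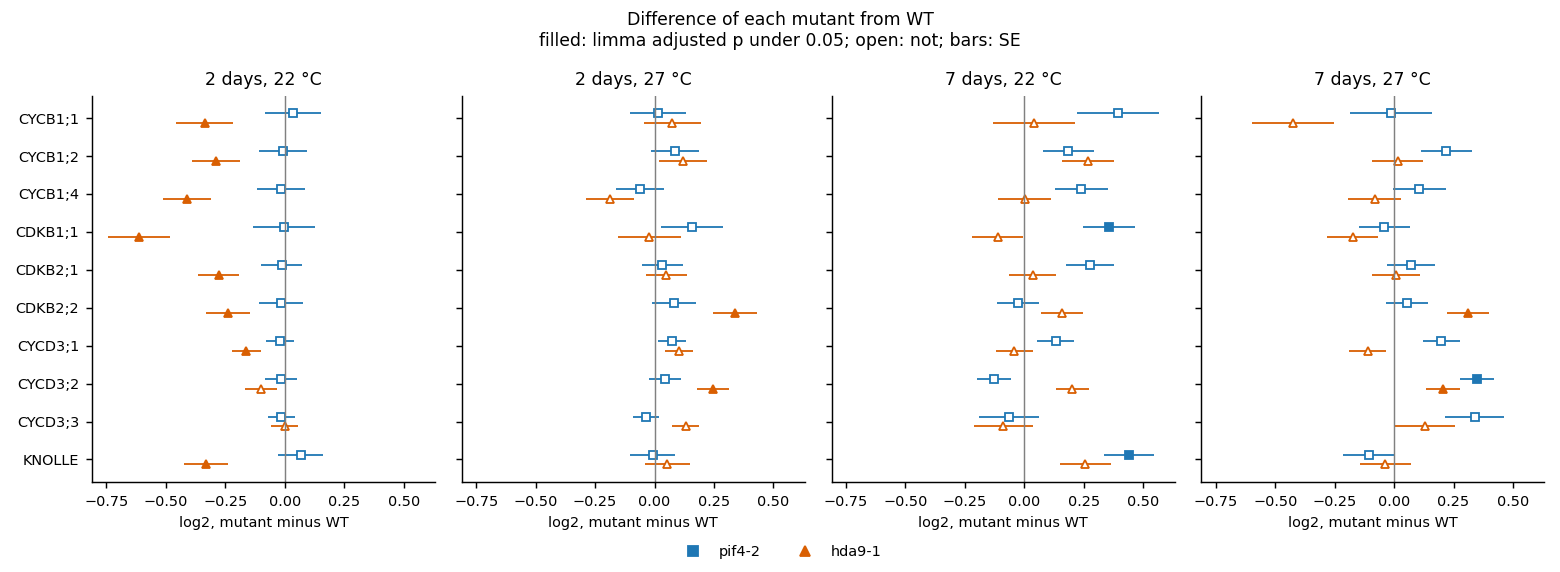
Log2 difference of pif4-2 (squares) and hda9-1 (triangles) from WT (horizontal axes) for each gene at 2 days and 22 °C, 2 days and 27 °C, 7 days and 22 °C and 7 days and 27 °C, from left to right, with SE as bars and filled symbols where the limma adjusted p was under 0.05. At 2 days and 22 °C 8 genes are filled to the left of 0 in hda9-1, CDKB1;1 farthest at -0.61, while no gene is filled in pif4-2, and at 7 days and 22 °C KNOLLE is filled at 0.44 in pif4-2.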

How the data were processed

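RNA from whole seedlings was sequenced in 36 libraries as single reads of 50 bases, per the labels' protocols. Per the submitters' processing notes, the build was TAIR10 and the tools were TopHat2, HTSeq, Bowtie, DESeq and FastQC, with no role or strand setting stated. The deposited signal values are gene counts that the authors divided by 1 size factor per library, as the values show: multiplied back, 100% of values in every library came out as whole reads within 0.01. Counting categories that name no gene, 5 per library, were left out of totals and tests (reads without a unique position were 6.05 to 8.42%, ambiguous reads 0.952 to 1.23% and reads in no gene 0.649 to 0.884%). No column belonged to a sample of another series (0 columns).

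Values were tested as log2(value + 1) with limma 3.58.1 (trend, empirical Bayes) in R 4.3.3. A gene entered the fit where 3 or more libraries held a value of 10 or more, over the 18 libraries of an age or all 36 where ages were compared. P-values were adjusted over all genes tested by Benjamini-Hochberg, with 0.05 as the threshold for a call. Fold changes are on the log2(value + 1) scale, which understates changes of low genes. The labels do not say that libraries of a group came from separate cultures beyond the 3 batches combined in each, so a p-value covers the spread among these libraries alone, which may be technical. Alternatives were a pseudocount of 8, no filter, TMM scaling, the replicate number as a block, only the compared groups, edgeR 4.0.16 (quasi-likelihood) and DESeq2 1.42.0 on the recovered reads, leaving out each library, and leaving out replicate 3 of every 2-day group. The fits were tested on simulated data with known changes.

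Replicate numbers were taken to pair libraries where every same-numbered pair of libraries correlated above 0.1 in its deviations from the group means. This held for warmth in pif4-2 at 2 days (0.196 to 0.466) and in hda9-1 at 7 days (0.104 to 0.19), for pif4-2 against WT at 2 days at 22 °C (0.194 to 0.47) and 27 °C (0.236 to 0.519), and for hda9-1 against WT at 27 °C and 2 days (0.211 to 0.444). The pairing comes from the values, since the labels do not say what a number shares. The 10 genes and all gene lists were chosen with earlier results of these data known. All 10 genes are named, and of each list up to 4 called genes with the smallest adjusted p per comparison. Genes like KNOLLE, CDKB1;1 and CYCD3;1 are the 5 with the highest correlation. Gene models, windows and neighbours are from RefSeq TAIR10.1, matched by locus, and plots were drawn with matplotlib 3.10.9.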

Additional observations from a re-analysis of the deposited data

Results flagged for a closer look

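The following 7 responses differed between groups by a test of the difference itself (limma, adjusted over all genes). Between ages in WT, the response to warmth at 7 days minus that at 2 days was 0.64 ± 0.22 (SE, log2) for CYCB1;1 (limma, adjusted p = 0.0155), 0.58 ± 0.13 for CDKB2;2 (0.000454), 0.45 ± 0.14 for CYCD3;3 (0.0095), 0.39 ± 0.15 for KNOLLE (0.0306) and -0.29 ± 0.10 for CYCD3;2 (0.0181). Between genotypes, the response of hda9-1 at 2 days minus that of WT was 0.58 ± 0.13 for CDKB2;2 (limma, adjusted p = 0.0337), and the response of pif4-2 at 7 days minus that of WT was 0.48 ± 0.10 for CYCD3;2 (limma, adjusted p = 0.0188). Of all genes, 47.4% were called in the test between ages, 20.8% higher and 26.7% lower, so the share of these genes called there was near that of all genes. In the tests between genotypes, 0.567% of all genes were called higher for hda9-1 at 2 days and 1.63% for pif4-2 at 7 days. Only CDKB2;2 and CYCD3;3 between ages kept their calls under every alternative tried. Groups of 3 libraries are too small for a test of single outlying libraries.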

How the results depend on the processing

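Of 3710 values of a gene in a comparison under an alternative, 3578 kept their side of the threshold, 88 lost a call and 44 gained one. The sign of a called value changed in 0. Values called in neither fit were counted as kept even where their sign changed. Of the 250 pairs of gene and comparison, 42 had any change of call. The counts of genes called for warmth within a genotype and for 7 against 2 days stayed within 1.5 times of the reported count under every alternative tried.

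With only the compared groups in the fit, the count was 5 for hda9-1 against WT at 22 °C and 2 days (8 as reported), 1 at 27 °C and 2 days (2) and 3 at 22 °C and 7 days (0), 0 for pif4-2 against WT at 22 °C and 7 days (2) and 3 at 27 °C and 7 days (1), and 0 for the difference in response of hda9-1 at 2 days (1) and of pif4-2 at 7 days (1). This fit holds fewer libraries. For pif4-2 against WT at 27 °C and 7 days, TMM scaling, edgeR and DESeq2 each gave 2. For hda9-1 against WT at 22 °C and 7 days, TMM scaling gave 1, edgeR 1 and DESeq2 2. For the difference in response of hda9-1 at 2 days, DESeq2 gave 3 and leaving out replicate 3 of every 2-day group gave 4, and DESeq2 gave 2 for that of pif4-2 at 7 days. For the difference in response between ages in WT, leaving out replicate 3 of every 2-day group gave 3 (5 as reported). Apart from the smaller fits, the cause was not tested.

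Leaving out 1 library at a time, the count ran from 3 to 8 for hda9-1 against WT at 22 °C and 2 days, 1 to 2 at 27 °C and 2 days, 0 to 1 at 22 °C and 7 days and 0 to 2 at 27 °C and 7 days. It ran from 1 to 2 for pif4-2 against WT at either temperature at 7 days, 0 to 5 for the difference in response of hda9-1 at 2 days, 0 to 2 for that of pif4-2 at 7 days and 3 to 6 for that between ages in WT.

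With the replicate number as a block, 8 genes were called in the difference in response of hda9-1 at 2 days (1 without the block) and 6 in that between ages in WT (5). In neither do the numbers pair the libraries (lowest correlation -0.14 and -0.0548). Where they do, the block added CYCD3;3 in hda9-1 at 27 °C and 2 days (3 calls against 2) and changed no other call. The share of all genes called was computed for the reported fits alone. Counts with the block are therefore not a result about these genes in particular. With 3 libraries a group, a difference that did not pass is not shown to be absent.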
